A study of Mus musculus with 6 samples.

Results

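Transcripts of 10 genes that carry mitogen signals into and out of fibroblasts were followed: the platelet-derived growth factor (PDGF) receptors Pdgfra and Pdgfrb with the ligands Pdgfa and Pdgfb, the fibroblast growth factor (FGF) receptor Fgfr1 with the ligands Fgf2, Fgf7 and Fgf10, the epidermal growth factor (EGF) receptor Egfr, and Met, the receptor of hepatocyte growth factor. They were chosen by name, as receptors and ligands upstream of RAS, with earlier results of these data known. All 10 were found by symbol among the 35275 genes of the count table. RNA had been sequenced from NIH3T3 cells, a line of mouse embryo fibroblasts, in 3 wild-type libraries and in 3 libraries labelled NgBR overexpression. The second line had been transfected with a pIRES plasmid for HA-tagged NgBR (the Nogo-B receptor, encoded by Nus1) and kept under G418 to select stable cells, and none of the sources used here says whether it was 1 clone or a pool. Both lines grew in DMEM with penicillin, streptomycin and 10% calf serum, and no other treatment is labelled. Serum itself contains growth factors, and the wild-type label names neither an empty plasmid nor G418, so that selection and plasmid cannot be told apart from NgBR in this comparison. The labels do not say whether the replicates were separate cultures, so p-values measure only the spread between libraries, which may be technical.

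The products of these receptor genes are tyrosine kinases of the cell surface. A bound ligand brings receptor chains together, the chains phosphorylate each other, and adaptors such as GRB2 with the exchange factor SOS then load RAS with GTP, which starts the RAF, MEK and ERK cascade. Fibroblasts are a classical target of PDGF and of FGF2, whereas FGF7, FGF10 and hepatocyte growth factor are made by mesenchymal cells and act mainly on epithelia. NgBR is a membrane protein known as the partner subunit of the cis-prenyltransferase that makes dolichol, and it has been reported to bind farnesylated RAS at the membrane.

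Of the 10 genes, 9 had enough counts to be tested and 1, Fgf2, was called changed, where 3.39% of all genes tested were. The call was made in 10 of 17 alternative analyses and in 1 of the 6 that left out a library. The Fgf2 transcript was higher in the libraries labelled NgBR overexpression, by a fold of 3.26 (95% interval 1.85 to 5.76) at a low level. Pdgfra and Fgf7, among the most abundant transcripts of the set, had lower values in all 3 labelled libraries than in any wild-type library, but neither passed the test. Groups did not overlap in 18.6% of all genes tested, 9.21% upward and 9.37% downward. The sequences before the transcript starts of Fgf2, Pdgfra and Fgf7 are given here because they are the members whose groups do not overlap. They are the 250 bases upstream of the RefSeq start on GRCm38.p6, plus strand, at chr3:37348403-37348652 for Fgf2, chr5:75152001-75152250 for Pdgfra and chr2:126034408-126034657 for Fgf7, with the GC box GGGCGG in capitals where it occurs.
Fgf2: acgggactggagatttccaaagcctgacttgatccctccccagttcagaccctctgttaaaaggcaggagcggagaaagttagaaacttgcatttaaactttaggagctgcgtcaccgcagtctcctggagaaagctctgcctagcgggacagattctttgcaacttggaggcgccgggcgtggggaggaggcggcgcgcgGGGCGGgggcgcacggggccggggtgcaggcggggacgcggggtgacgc
Pdgfra: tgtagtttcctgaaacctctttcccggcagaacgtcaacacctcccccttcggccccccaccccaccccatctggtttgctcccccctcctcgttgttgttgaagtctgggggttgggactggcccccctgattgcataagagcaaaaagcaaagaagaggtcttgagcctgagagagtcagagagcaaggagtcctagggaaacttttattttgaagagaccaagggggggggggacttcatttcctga
Fgf7: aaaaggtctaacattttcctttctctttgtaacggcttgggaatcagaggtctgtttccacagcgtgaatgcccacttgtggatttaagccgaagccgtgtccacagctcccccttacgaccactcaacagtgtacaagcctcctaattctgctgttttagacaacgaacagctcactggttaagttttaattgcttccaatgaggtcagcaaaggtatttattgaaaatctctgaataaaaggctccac
The Fgf2 window held 62.4% G or C and 20 CpG dinucleotides, against medians of 52.4% and 6 over all 32851 windows of the same length. It held 1 GGGCGG, at position -49 from the start. The Pdgfra window held 54.4% G or C and 4 CpG, and the Fgf7 window 43.6% and 6. Searched on both strands, GGGCGG occurred in 32.7% of all windows, the TATA sequence TATAAA in 12.4% and the AP-1 sequence TGANTCA in 6.75%. None of the 3 was found in the Pdgfra or Fgf7 window, and the Fgf2 window held neither TATAAA nor TGANTCA. The Fgf2 window lies inside the GENCODE gene, which starts further upstream. A match is a description of the letters and not a measured binding site. RefSeq windows were found for 7 of the 10 genes.

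The wild-type libraries held 29515072 to 35511769 counts and the labelled ones 7369961 to 10358381, a mean ratio of 3.5, so depth and group cannot be told apart. Nus1, the gene targeted by the plasmid, was measured at 212, 187 and 233 CPM (deposited counts divided by library sizes that TMM factors had scaled) in the wild-type libraries and at 184, 185 and 165 CPM in the labelled ones. The difference of -0.24 in log2 (SE 0.21, edgeR adjusted p = 0.786) did not go in the direction of the label. None of the sources used here gives the species or the untranslated parts of the plasmid insert. Groups are therefore named by their label throughout. Over all 12651 genes tested, the first principal component of log2 CPM (46.5% of the variance) separated the groups and the second (28.6%) set both libraries numbered 2 apart from the other 4. The 7 fibroblast markers Col1a1, Col1a2, Col3a1, Thy1, Vim, S100a4 and Dcn summed to 12068 to 15991 CPM in the wild type and 14892 to 18861 CPM in the labelled libraries. Of these 7, 0 were called by edgeR's quasi-likelihood test (1 lower at an unadjusted p under 0.05, 1 lower by DESeq2, Dcn). Of the 6 epithelial markers Epcam and Krt18 had 0 counts and the sum was 0.237 to 0.859 against 0.791 to 2.67 CPM. Sums for the 4 endothelial markers were 0.643 to 0.945 against 0.702 to 2.01 CPM, for the 4 leukocyte markers 2.20 to 4.21 against 2.95 to 3.96, for the 4 skeletal muscle markers 0.846 to 1.054 against 2.01 to 3.09 (Myod1 and Myog at 0) and for the 4 mural markers 38.8 to 95.5 against 36.2 to 76.3 (Kcnj8 at 0). The part of these sums in the results was not tested.

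Pdgfra (ENSMUSG00000029231, mm10 chromosome 5, 75152292 to 75198215, plus strand) encodes the PDGF receptor that binds PDGF-A as well as PDGF-B and PDGF-C. It was measured at 970, 993 and 890 CPM in the wild-type libraries and at 533, 863 and 536 CPM in the labelled ones. The 3 labelled libraries all lay under the 3 wild-type ones, and labelled library 2 lay closest to the wild type. Mean levels came to 951 ± 53.9 CPM in the wild type and 644 ± 190 CPM in the labelled group (SD, n = 3 each). The log2 fold change of -0.56 (SE 0.29, 95% interval -1.22 to 0.09) had an edgeR adjusted p of 0.536. In bulk RNA, fewer cells with a transcript and less of it per cell cannot be told apart. Pdgfrb (ENSMUSG00000024620, chromosome 18, 61045150 to 61085061, plus strand) encodes the receptor chain that binds PDGF-B. It was measured at 239, 252 and 204 CPM in the wild type and at 239, 243 and 160 CPM in the labelled libraries. Its ranges overlapped, and the log2 fold change of -0.12 (SE 0.25, interval -0.67 to 0.44, adjusted p = 0.941) turned to 0.055 without labelled library 3.

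Both PDGF ligands in the set were below their receptors per length of exon, with the values given beside the order of levels. Pdgfa (ENSMUSG00000025856, chromosome 5, 138976014 to 138997370, minus strand) was measured at 41.4, 43.7 and 38.1 CPM in the wild type and at 46.7, 63.8 and 33.4 CPM in the labelled libraries. The labelled libraries spread over a wider range that enclosed the wild-type values, with means of 41.1 ± 2.81 and 48.0 ± 15.2 CPM. The log2 fold change was 0.23 (SE 0.26, interval -0.36 to 0.81, edgeR adjusted p = 0.860), and -0.042 without labelled library 2. An antisense gene, 6330403L08Rik, overlaps Pdgfa, and since the strand setting of the counting is not given, their reads cannot be told apart. Its own log2 fold change was -0.38 (edgeR adjusted p = 0.646). Pdgfb (ENSMUSG00000000489, chromosome 15, 79995874 to 80014977, minus strand), the ligand of both receptors, was close to the limit of detection. It had 6, 0 and 2 counts in the wild-type libraries and 0, 0 and 1 in the labelled ones, which was too few for the test. Pooled levels were 0.0819 and 0.0361 CPM, a ratio of 0.441 with an exact 95% interval of 0.0099 to 3.29, whereas a count of 0 over a group allows up to 0.0307 CPM in the wild type and 0.108 CPM in the labelled libraries. Such intervals hold counting error alone, because reads were not tagged by molecule and can be copies of each other.

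Fgfr1 (ENSMUSG00000031565, chromosome 8, 25513654 to 25575718, plus strand) encodes an FGF receptor widely expressed in mesenchymal cells. It was measured at 435, 492 and 488 CPM in the wild type and at 467, 677 and 489 CPM in the labelled libraries. Only labelled library 2 stood above the wild-type range. The means of 472 ± 31.6 and 544 ± 115 CPM differed by 0.21 in log2 (SE 0.26, interval -0.37 to 0.79, edgeR adjusted p = 0.876). The antisense gene Gm16159 overlaps Fgfr1, at 0.181 to 1.69 CPM over the 6 libraries.

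**Figure D1:**
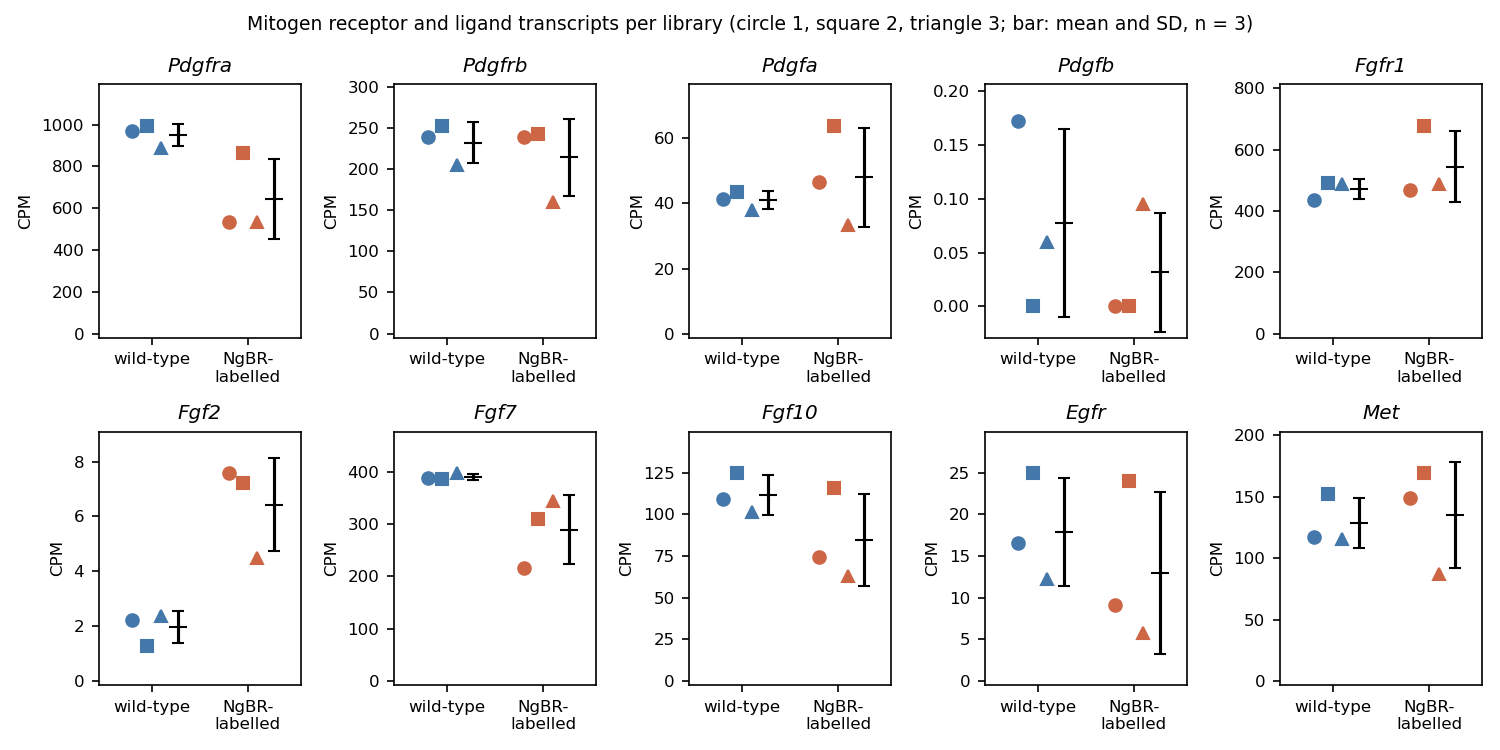
Level of each of the 10 transcripts per library, in CPM on TMM-scaled library sizes (linear axes, 1 panel per gene). Circles, squares and triangles are libraries 1, 2 and 3, and bars give the mean and SD (n = 3). Fgf2 lies between 1.29 and 2.38 CPM in the wild type and between 4.49 and 7.58 CPM in the labelled libraries.

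Fgf2 (ENSMUSG00000037225, chromosome 3, 37348346 to 37410108, plus strand) encodes basic FGF, a mitogen of fibroblasts that leaves cells without a signal peptide. It was measured at 2.21, 1.29 and 2.38 CPM in the wild-type libraries and at 7.58, 7.22 and 4.49 CPM in the labelled ones, from 77, 38 and 79 against 54, 73 and 47 counts. Every labelled library lay above every wild-type library, with means of 1.96 ± 0.587 and 6.43 ± 1.69 CPM. The log2 fold change was 1.71 (SE 0.36, interval 0.89 to 2.52), and Fgf2 passed the threshold of 0.05 with an edgeR adjusted p of 0.0366. Of all genes tested, 3.39% were called at this threshold, 2.04% higher and 1.35% lower, against 1 higher and 0 lower of these 9 genes (0 lower also at an unadjusted p under 0.05). DESeq2 called Fgf2 higher and 0 members lower where it called 3.53% and 2.16% of all genes, and limma-voom did the same where it called 2.07% and 1.17%. The direction was the same in all 17 alternative analyses, and the call was made in 10 of them, with adjusted p-values between 0.00038 and 0.151. It was lost without wild-type library 1 (log2 1.81, adjusted p = 0.112), 2 (1.48, 0.0803) or 3 (1.87, 0.0788), and without labelled library 1 (1.57, 0.151) or 2 (1.602, 0.0968). It was kept without labelled library 3 (1.91, 0.0445). Reduced to equal depth, by 1 random draw of counts down to the total of the shallowest library, the log2 fold change was 1.80 (adjusted p = 0.0769). Without both libraries numbered 2 it was 1.37 (0.0715). Values at equal depth all come from this 1 draw.

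Fgf2 overlaps genes of the opposite strand, among them Nudt6, a known antisense partner of Fgf2, and reads of the pair cannot be told apart. Nudt6 was measured at 3.15, 2.20 and 2.77 CPM in the wild type and at 2.81, 2.08 and 4.01 CPM in the labelled libraries. These groups overlapped, and the log2 fold change was 0.13 (edgeR adjusted p = 0.956; -0.16 without labelled library 3). The antisense gene Fgf2os had 6 counts in the wild type and 7 in the labelled libraries, a ratio of pooled CPM of 4.11 (exact interval 1.18 to 14.8).

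Fgf7 (ENSMUSG00000027208, chromosome 2, 126034658 to 126091185, plus strand) encodes keratinocyte growth factor, a paracrine ligand that mesenchymal cells make for epithelia. It was measured at 388, 386 and 397 CPM in the wild type and at 216, 309 and 343 CPM in the labelled libraries. The wild-type values were close together, and all 3 labelled values lay under them. The means were 390 ± 6.07 and 290 ± 66.3 CPM, and the log2 fold change of -0.43 (SE 0.25, interval -1.0 to 0.14) had an edgeR adjusted p of 0.617. Ranges that do not overlap were found in 1 member upward and 2 downward, where 18.6% of all genes tested showed them, 9.21% upward and 9.37% downward. Fgf10 (ENSMUSG00000021732, chromosome 13, 118669791 to 118792115, plus strand), a related ligand known from lung and limb development, was measured at 109, 125 and 101 CPM and at 74.5, 116 and 63.3 CPM. Here labelled library 2 lay within the wild-type range and the other 2 below it. The log2 fold change was -0.40 (SE 0.26, interval -1.0 to 0.19, edgeR adjusted p = 0.670), and -0.71 (0.190) without labelled library 2. Genes of the opposite strand overlap Fgf7 (Fam227b, at most 1.18 CPM) and Fgf10 (Gm16263, at most 0.981 CPM).

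Egfr (ENSMUSG00000020122, chromosome 11, 16752203 to 16918158, plus strand) encodes the receptor of EGF and related ligands. It was measured at 16.6, 24.9 and 12.2 CPM in the wild type and at 9.12, 24.0 and 5.73 CPM in the labelled libraries. Library 2 was the highest in both groups, and the labelled libraries 1 and 3 lay below all 3 wild-type values. The log2 fold change was -0.46 (SE 0.49, interval -1.58 to 0.66, edgeR adjusted p = 0.840), and -1.29 (0.181) without labelled library 2. Its interval was the widest of the 9 tested members. The antisense gene Egfros overlaps Egfr and had 3 counts in the wild type and 25 in the labelled libraries, a ratio of pooled CPM of 29.4 (exact interval 8.97 to 152). Of those 25 counts, 17 came from labelled library 2. Met (ENSMUSG00000009376, chromosome 6, 17463800 to 17573980, plus strand) was measured at 117, 152 and 116 CPM and at 149, 169 and 86.9 CPM. The labelled libraries lay on both sides of the wild type, and its fitted log2 difference was 0.07 (SE 0.28, interval -0.56 to 0.71, edgeR adjusted p = 0.973). Removing labelled library 1 gave -0.01, and removing labelled library 2 gave -0.13.

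**Figure D2:**
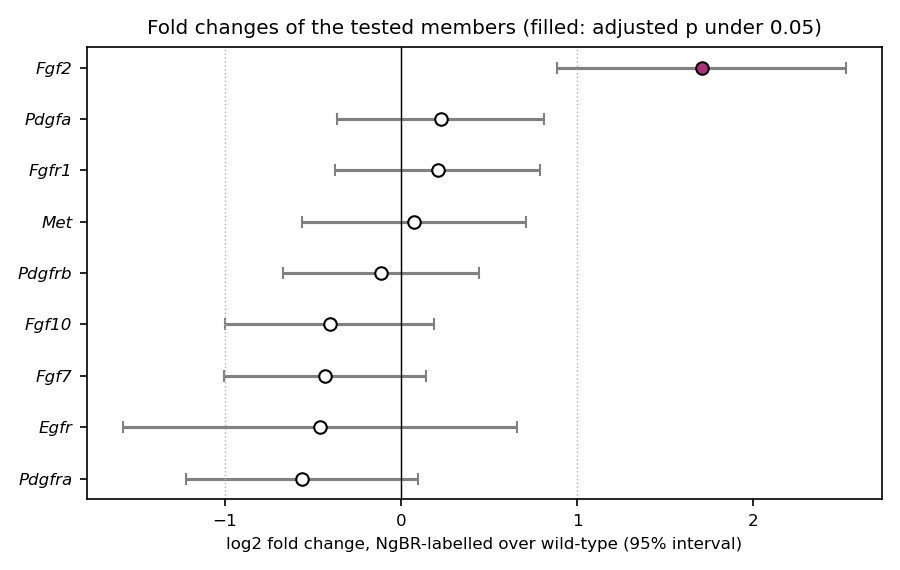
Log2 fold change of the 9 tested transcripts, labelled libraries over wild type (n = 3 each), with 95% intervals derived from edgeR's quasi-likelihood F test. The filled point marks an adjusted p under 0.05. The interval of Fgf2 runs from 0.89 to 2.52, and the intervals of the other 8 include 0.

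Over the 9 tested genes the median log2 fold change was -0.12, against -0.01 over all genes tested, with 4 positive and 5 negative values. Apart from Fgf2, the intervals do not show that levels were equal: they reached down to -1.22 for Pdgfra and -1.58 for Egfr, and up to 0.81 for Pdgfa. On counts simulated with the depths and spread of these libraries, edgeR called 10% of genes changed by a fold of 2 and 88% of genes changed by a fold of 4. The changed genes were drawn at random from all genes tested and simulated independently, with no shift shared by the libraries numbered 2. These are therefore not rates for the 9 members.

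For most of these transcripts the libraries numbered 2 were the highest of their group. In both groups 7 of the 9 tested genes were highest in library 2, the exceptions being Fgf2 and Fgf7. Among all 12651 genes tested 21.9% were highest in library 2 in both groups. In the wild type, library 2 over the mean of libraries 1 and 3 was 1.73 for Egfr, 1.30 for Met, 1.18 for Fgf10, 1.14 for Pdgfrb, 1.1 for Pdgfa and 1.07 for Pdgfra and Fgfr1. In the labelled group the same ratio was 3.24 for Egfr, 1.68 for Fgf10, 1.61 for Pdgfra, 1.59 for Pdgfa, 1.43 for Met, 1.42 for Fgfr1 and 1.22 for Pdgfrb. Each of these 7 ratios was larger in the labelled group. For Fgf7 the ratio was 0.982 in the wild type and 1.11 in the labelled group. Fgf2 had 0.561 and 1.2, so that its lowest wild-type library was the one in which the 7 genes were highest.

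Libraries numbered 2 also held relatively more of long transcripts. Across 12589 genes with a known exonic length, Spearman's correlation of length with a gene's deviation from its mean over the 6 libraries was 0.242 in wild-type library 2 and 0.347 in labelled library 2. It was -0.226 and -0.299 in wild-type libraries 1 and 3, and 0.07 and -0.467 in labelled libraries 1 and 3. These are descriptions across genes, which are not independent and share library and depth. With an offset for exonic length and GC content in the fit, Pdgfra had a log2 fold change of -0.57, Fgf7 -0.38, Egfr -0.53 and Fgf2 1.68 (edgeR adjusted p = 0.035), which are close to the values without it. No other call among the members was made with the offset.

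**Figure D3:**
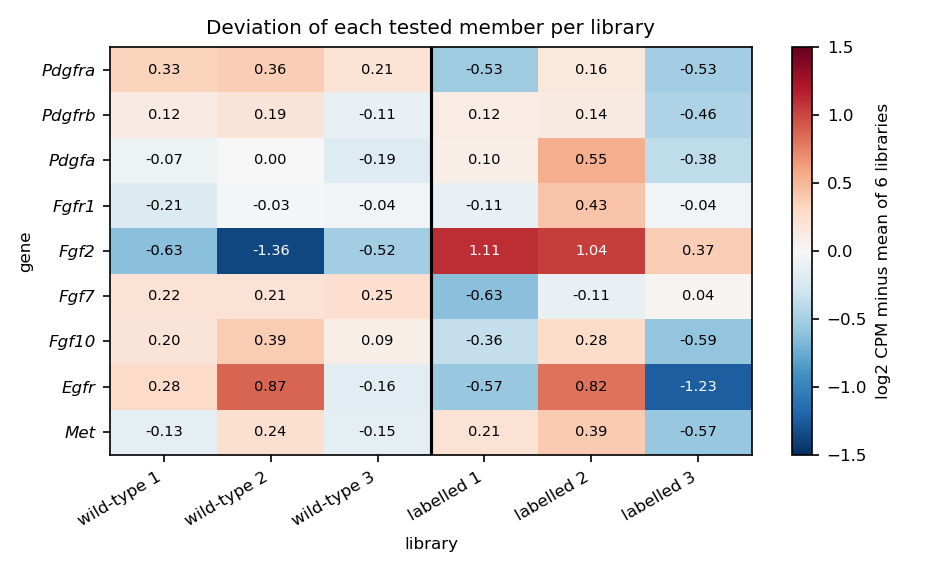
Deviation of each tested transcript in each library from its mean over the 6 libraries, in log2 CPM (red higher, blue lower). Columns are wild-type libraries 1 to 3, then labelled libraries 1 to 3. Fgf2 runs from -1.36 to 1.11, and Egfr is highest in library 2 of both groups, at 0.87 and 0.82.

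Levels of different genes were compared per length, as CPM per kilobase of exon. In the wild type Fgf7 was the highest at 120 ± 1.87, followed by Pdgfra at 94.9 ± 5.38, Fgfr1 at 47.8 ± 3.20 and Pdgfrb at 42.3 ± 4.52. Next came Fgf10 at 24.3 ± 2.58, Met at 16.7 ± 2.65 and Pdgfa at 13.2 ± 0.899. Egfr at 1.58 ± 0.571, Fgf2 at 0.288 ± 0.0866 and Pdgfb at 0.0186 ± 0.0210 were the lowest (SD, n = 3). Of neighbours in this order, the library ranges overlapped for Fgfr1 and Pdgfrb only. The transcripts of the PDGF receptors and of Fgfr1 were thus well above that of Egfr per unit of length.

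The order of the group means was the same in the labelled libraries, with more neighbours overlapping. Per kilobase, Fgf7 had 89.1 ± 20.4 CPM, Pdgfra 64.2 ± 18.9, Fgfr1 55.1 ± 11.7, Pdgfrb 39.1 ± 8.48 and Fgf10 18.4 ± 6.0. Met had 17.6 ± 5.59, Pdgfa 15.4 ± 4.88, Egfr 1.14 ± 0.860, Fgf2 0.948 ± 0.249 and Pdgfb 0.00765 ± 0.0133. Ranges overlapped between Fgf7 and Pdgfra, Pdgfra and Fgfr1, Fgf10 and Met, Met and Pdgfa, and Egfr and Fgf2. Egfr and Fgf2 were separate in the wild type. With the longest annotated transcript as length, Pdgfa came before Met in the wild type, and in the labelled libraries Fgfr1 came before Pdgfra and Pdgfa before Fgf10 and Met.

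**Figure D4:**
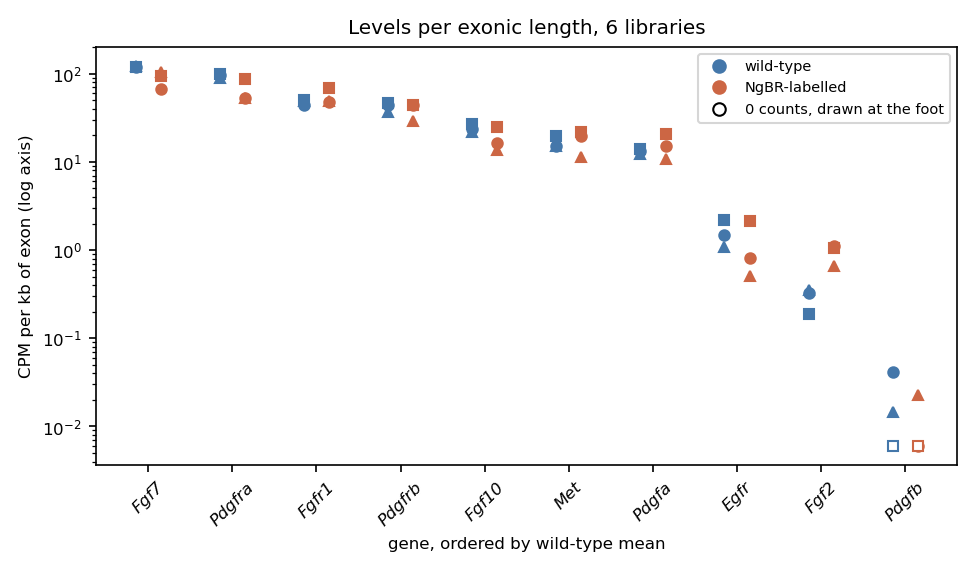
Level per length of the 10 transcripts in each library, in CPM per kilobase of exon on a log axis, ordered by the wild-type mean. Blue is wild type, orange the labelled libraries, with circles, squares and triangles for libraries 1 to 3, and open symbols at the foot are 0 counts. Wild-type means run from 120 for Fgf7 down to 0.0186 for Pdgfb.

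Within each receptor family, shares of the summed level per length were compared between the groups by exact two-sided permutation tests, 8 in all, for which the smallest possible p with 3 against 3 libraries is 0.1. Pdgfra made up 68.9%, 68.3% and 70.4% of the PDGF receptor transcripts in the wild type and 54.9%, 66.0% and 64.6% in the labelled libraries. The labelled shares were all lower, by a mean of -7.35 percentage points (exact permutation p = 0.1, Benjamini-Hochberg adjusted 0.16), a difference that ran from -9.44 to -3.89 with 1 library left out. Fgfr1 made up 91.5 ± 0.741% of FGF receptor transcripts in the wild type and 93.5 ± 1.45% in the labelled libraries, without overlap (exact permutation p = 0.1, adjusted 0.16). Most of the remainder was Fgfr2, at 8.49 ± 0.703% and 6.43 ± 1.44%, and it too was without overlap (exact p = 0.1, adjusted 0.16). Fgfr3 was close to 0, at a mean of 0.00547% and 0.0805% (exact p = 0.1, adjusted 0.16), and Fgfr4 had 5 counts in the wild type and 0 in the labelled libraries (exact p = 0.4 for its share).

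Of the EGF family, Egfr made up 7.55%, 13.2% and 6.08% of receptor transcripts in the wild type and 4.14%, 9.35% and 3.01% in the labelled libraries, with overlap (exact permutation p = 0.3, adjusted 0.343). Erbb2, which encodes the family member without a ligand of its own, made up 90.5 ± 3.79% and 87.5 ± 3.03% (exact p = 0.3, adjusted 0.343). Erbb3, whose product binds neuregulins and has a weak kinase, made up 0.491%, 0.640% and 0.620% in the wild type and 9.0%, 5.87% and 6.23% in the labelled libraries. This share was higher in all 3 labelled libraries (exact p = 0.1, adjusted 0.16), so that Erbb3 was below Egfr in all 3 wild-type libraries and above it in labelled libraries 1 and 3. Erbb4 had 0 counts. Since each share depends on the others of its family, these tests are not independent.

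The partners of the 10 genes were described from 9 lists with 172 genes, of which 126 were tested. Of these, 5 were called higher and 4 lower (edgeR, adjusted p under 0.05), against 2.04% and 1.35% of all genes, and their median log2 fold change was 0.05. The list around the FGF receptors held other FGF receptors, klothos, the syndecans and glypicans, and enzymes that build or trim heparan sulphate, the chains on these proteoglycans that help FGFs to bind. Of its 18 tested genes 3 were called lower and 0 higher, with a median of -0.07, 7 positive values and 11 negative ones. Heparan sulphate enzymes were 9 of the 18. The 3 called lower were among 7 tested syndecans and glypicans. Gpc6, a glypican, fell from 82.9 ± 21.7 to 6.16 ± 0.416 CPM (log2 -3.75, SE 0.27, edgeR adjusted p = 0.000294). The glypican Gpc4 fell from 37.6 ± 0.844 to 5.69 ± 1.92 CPM (log2 -2.73, SE 0.29, 0.0014). The syndecan Sdc3 fell from 64.1 ± 9.48 to 9.96 ± 3.67 CPM (log2 -2.69, SE 0.32, 0.00231). These 3 kept their calls in all 17 alternatives. The other 4 tested proteoglycan genes, named after their values were seen, were not called. Sdc4 was at 471 ± 32.8 and 551 ± 229.9 CPM (log2 0.23; -0.17 without labelled library 2), and Gpc1 at 304 ± 16.0 and 363 ± 91.2 CPM (log2 0.26). Sdc2 was at 154 ± 9.58 and 185 ± 17.7 CPM (log2 0.26, without overlap), and Sdc1 at 182 ± 24.7 and 168 ± 28.6 CPM (log2 -0.12). Fgfr2, named after its values were seen, had 45.9 ± 6.42 and 37.9 ± 2.16 CPM (log2 -0.28, edgeR adjusted p = 0.734).

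The list of other FGF genes held 19 of them and 2 genes of FGF-binding proteins. Of the 19 FGF genes, 7 had 0 counts and 2 were tested, Fgf11 and Fgf14. Fgf11, which encodes an intracellular FGF homologue that is not secreted, was called higher. It had 0.601, 0.169 and 0.0602 CPM in the wild type and 1.68, 3.56 and 2.29 CPM in the labelled libraries, from 28 and 72 counts in all (log2 3.15, SE 0.70, edgeR adjusted p = 0.0458). The call was lost without wild-type library 2 (2.90, 0.146) or 3 (2.67, 0.0848), without labelled library 1 (3.35, 0.120), 2 (2.81, 0.158) or 3 (3.22, 0.125), and at equal depth (3.08, 0.153). Without both libraries numbered 2 it was 2.57 (0.164), and without wild-type library 1 the fold change was larger, at 4.42 (0.0146). The PDGF list held Pdgfc, Pdgfd, the receptor-like Pdgfrl and 3 genes of proteases, Plat, Plau and Furin. Among its 5 tested genes 0 were called by edgeR's quasi-likelihood test (1 higher at an unadjusted p under 0.05, 0 by DESeq2 and limma-voom), and the median of 0.48 was the value of Plat. The highest in CPM were the protease genes Furin (187 ± 3.03 and 194 ± 59.2 CPM) and Plat (40.7 ± 16.4 and 56.8 ± 10.8 CPM). Pdgfc, named after its values were seen, had 54.6 ± 2.88 and 42.3 ± 1.63 CPM (log2 -0.37, edgeR adjusted p = 0.539).

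The EGF list held 14 receptor and ligand genes and the genes of the ADAM proteases Adam10, Adam12 and Adam17. Of its 11 tested genes 2 were called higher and 0 lower, where 2.04% and 1.35% of all genes tested were. These were 1 of 8 tested receptors and ligands, and 1 of the 3 proteases. The list median was 0.18, with 9 positive and 2 negative values. Erbb3 rose from 0.626 ± 0.0471 to 8.28 ± 2.12 CPM (log2 3.71, SE 0.34, edgeR adjusted p = 0.000715), a fold of 13.1, and kept its call in all 17 alternatives. Its wild-type libraries held 20, 19 and 22 counts. At equal depth the log2 fold change was smaller, at 2.78 (edgeR adjusted p = 0.0103), in 1 random draw of counts, and no other draw was made. Adam12, a protease that can release HB-EGF from cells, rose from 9.66 ± 1.33 to 21.3 ± 4.47 CPM (log2 1.14, SE 0.25, edgeR adjusted p = 0.0444). It was not called on leaving out wild-type library 1 (adjusted p = 0.161), 2 (0.0729) or 3 (0.221), or labelled library 1 (0.181), 2 (0.0794) or 3 (0.0560), at equal depth (0.118) and without both libraries numbered 2 (0.0507). Hbegf, the gene of HB-EGF and named after its values were seen, was at 7.56, 24.4 and 8.16 CPM in the wild type and at 26.5, 40.0 and 33.9 CPM in the labelled libraries. These groups did not overlap, and the log2 fold change of 1.33 was not called (edgeR adjusted p = 0.223), but was called without wild-type library 2 (2.09, 0.00881), without both libraries numbered 2 (1.95, 0.0039) and with no filter on low counts (1.28, 0.0338). Erbb2 was at 84.7 ± 9.10 and 89.3 ± 10.4 CPM (log2 0.08, edgeR adjusted p = 0.956).

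The list around MET held 10 genes, of which 3 were tested. Of these 3, 1 was called lower, where 1.35% of all genes tested were, and 1 had a positive value. The median of -0.88 was the value of Hgf, which was not called. Plxnb1, a semaphorin receptor that can associate with MET, fell from 11.1 ± 1.48 to 2.60 ± 0.794 CPM (log2 -2.10, SE 0.32, edgeR adjusted p = 0.00697) and kept its call in all 17 alternatives. Hgf, the ligand of MET and named after its values were seen, was at 84.8, 123 and 82.2 CPM in the wild type and at 26.2, 94.7 and 36.7 CPM in the labelled libraries. Library 2 was the highest in both groups, as for Met. The log2 fold change of Hgf was -0.88 (SE 0.44, edgeR adjusted p = 0.511), and it was called lower without labelled library 2 (-1.62, 0.0296) and without both libraries numbered 2 (-1.40, 0.0137). It was not called with any other single library left out, as without labelled library 1 (-0.57, 0.786).

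The steps from the receptors to ERK were described by 2 lists. Of 24 tested adaptor and docking protein genes edgeR's quasi-likelihood test called 0 (1 higher and 1 lower at an unadjusted p under 0.05, 0 by DESeq2 and by limma-voom), with a median log2 fold change of 0.02. The most abundant were Grb10 (610 ± 132 and 615 ± 68.3 CPM) and Ptpn11, the gene of the phosphatase SHP2 (372 ± 57.9 and 374 ± 74.5 CPM). Of 24 tested genes of RAS, its regulators and the MAP kinase cascade edgeR also called 0 (1 lower at an unadjusted p under 0.05, 0 by DESeq2 and by limma-voom), with a median of -0.07. Nf1, a RAS GTPase activator, was at 146 ± 55.2 and 175 ± 102 CPM.

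Of 18 tested genes of receptor turnover and inhibition edgeR called 0 (2 higher and 1 lower at an unadjusted p under 0.05, 0 by limma-voom). Their log2 fold changes ran from -1.89 to 1.44, with a median of -0.04, 6 positive values and 12 negative ones. DESeq2 called Errfi1 higher and Ptprj lower, where it called 3.53% and 2.16% of all genes. Errfi1, an inhibitor of EGFR that is itself induced by growth factors and was named after its values were seen, was at 85.9 ± 12.4 and 233 ± 129 CPM (log2 1.44, edgeR adjusted p = 0.0918). DESeq2 gave it a log2 fold change of 1.45 (adjusted p = 0.0065), and without the filter on low counts edgeR gave 1.38 (0.0095). In edgeR Errfi1 was not called without labelled library 2 (0.91, adjusted p = 0.168) or without both libraries numbered 2 (0.81, 0.163). Nor did limma-voom call it (1.29, adjusted p = 0.144). The most abundant of this list were Socs5 (214 ± 17.1 and 237 ± 41.6 CPM) and Eps15 (170 ± 30.01 and 174 ± 27.7 CPM).

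Of 20 transcripts known to be induced by the MAP kinase cascade 2 were called higher and 0 lower, with a median of 0.36 and 17 positive values. Ranges above the wild type without overlap were found for 5 of them. Over all genes tested, 2.04% were called higher and 9.21% had ranges above the wild type. Ier3, an early response gene, was at 32.0, 33.3 and 36.9 CPM in the wild type and at 62.9, 117 and 126 CPM in the labelled libraries (log2 1.58, SE 0.28, edgeR adjusted p = 0.0163). Removing wild-type library 1 (adjusted p = 0.0686) or 2 (0.0600), labelled library 2 (0.0520) or 3 (0.0650), or both libraries numbered 2 (0.0590), ended the call. Dusp5, a nuclear phosphatase of ERK, was at 21.6, 21.7 and 25.3 CPM in the wild type and at 54.3, 40.0 and 46.2 CPM in the labelled libraries (log2 1.03, SE 0.22, edgeR adjusted p = 0.0333). Dusp5 lost its call when wild-type library 1 (adjusted p = 0.186), 2 (0.0783) or 3 (0.110) or labelled library 1 (0.148) or 3 (0.0828) was removed, and at equal depth (0.0683).

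**Figure D5:**
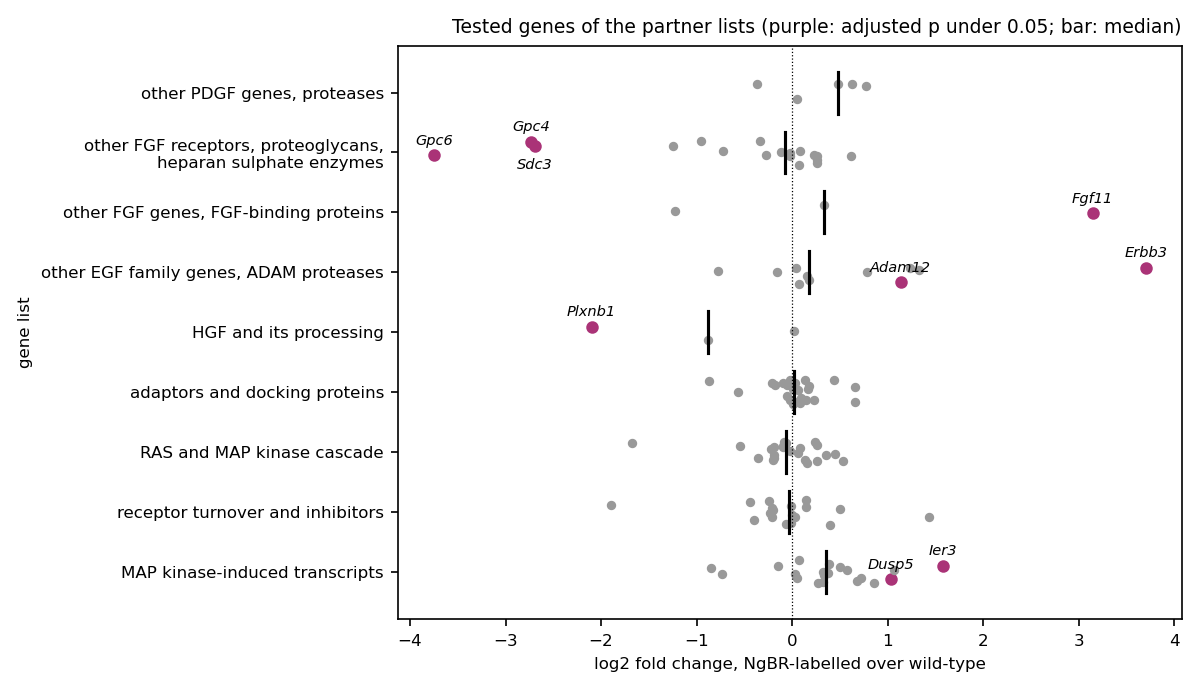
Log2 fold change of each tested gene of the 9 partner lists, labelled libraries over wild type (horizontal axis), 1 point per gene and 1 row per list. Larger purple points have an edgeR adjusted p under 0.05, and bars are list medians. Gpc6, Gpc4, Sdc3 and Plxnb1 lie on the lower side and Fgf11, Erbb3, Adam12, Ier3 and Dusp5 on the higher side.

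For the 3 tested members with the largest fold changes, the genes with the most similar profile over the 6 libraries were listed among 10033 genes with a mean of at least 5 CPM. Likeness was the root mean square distance of log2 CPM centred on the mean of the 6 libraries. Closest to Fgf2 were Dock8 (distance 0.193), Junos (0.196) and Gm7729 (0.208). Closest to Pdgfra were Mapkapk2 (0.0784), Pacs2 (0.0798) and Galnt13 (0.0894), and closest to Egfr were Runx1t1 (0.162), Il6st (0.166) and Hivep2 (0.172). The profiles near Egfr were further from it than those near Pdgfra were from Pdgfra. The distance is not scaled by a gene's own spread, so these values do not compare how distinct the profiles are. Deviations ran from -1.23 to 0.87 for Egfr and from -0.53 to 0.36 for Pdgfra. Likeness over 6 libraries includes the difference between the groups and the position of libraries 2, and is a description.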

How the data were processed

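Total RNA of 6 NIH3T3 samples (3 wild-type, 3 labelled NgBR overexpression) entered a SMARTER mRNA-seq preparation, per the labels' protocols, with 1.5 micrograms of RNA each. The authors deposited raw counts per gene, whole numbers without normalization. Reads had gone through HISAT2 2.0.5 and featureCounts 1.5.0-p3 on build mm10, which with DESeq2 are named in the submitters' processing notes. For annotation release, strand setting and filters, the sources used here give nothing.

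All genes were fitted in edgeR 4.0.16 (under R 4.3.3) with its quasi-likelihood F test, TMM factors and no covariate, after filterByExpr, which kept 12651 of 35275 genes. P-values were adjusted by Benjamini-Hochberg over all of them. The SE of a log2 fold change was derived from its size and the F statistic, and the interval from this SE and a t quantile. Log2 CPM used a prior count of 2. DESeq2 1.42.0 and limma-voom (limma 3.58.1) were alternatives, as were other size factors and filters, a replicate block, an offset for length and GC, equal depth, and leaving out libraries. Exact permutation tests used scipy 1.17.1. Positions and exonic lengths came from GENCODE M21, which held 97.8% of the identifiers. The fit was tested on simulated data.

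The members and lists were chosen with earlier results of these data known. Text named all members and Nus1, up to 4 called genes per partner list by size of fold change (mean 1 CPM or more) or otherwise its 2 most abundant, and the 3 genes nearest in profile to each of the 3 members with the largest fold changes. Others are named as chosen after their values were seen, and so are the overlapping genes. The rule also took 1 gene that is not reported here.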

Additional observations from a re-analysis of the deposited data

How the results depend on the processing

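Of the 9 tested members, Pdgfra, Fgfr1, Fgf2, Fgf7, Fgf10 and Egfr kept their direction in all 17 alternatives. Leaving out 1 library gave log2 fold changes of -0.22 to 0.055 for Pdgfrb, -0.042 to 0.43 for Pdgfa and -0.13 to 0.31 for Met, so that these 3 changed sign. Fgf2 was between 1.48 and 1.91 on leaving out 1 library, 1.80 at equal depth and 1.37 without both libraries numbered 2, and was not called in the latter 2. The count of members called higher was therefore 0 at equal depth, 0 without both libraries numbered 2 and 0 to 1 on leaving out 1 library. The causes of these changes were not tested.

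Over all genes, 258 were called higher and 171 lower. DESeq2 called 446 and 273. Equal depth left 138 and 109, and leaving out 1 library left 141 to 209 and 84 to 165. Lower calls numbered 302 with no filter on low counts and 263 without both libraries numbered 2. Of the partner genes, 5 were called higher and 4 lower. The higher calls numbered 2 at equal depth and 1 to 2 on leaving out 1 library, and the lower ones 7 without both libraries numbered 2. The median of all genes moved by at most -0.09, with no filter.

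Replicate numbers are shared by both groups, but the data do not show that they pair the samples: same-numbered libraries had correlated deviations of 0.0147, 0.341 and 0.434, and wild-type library 1 was closest to labelled library 3 (0.189). With the replicate number as a block, 418 genes were called higher and 301 lower, and 9 and 7 partner genes. Fgf2 was the 1 member called with the block, at 1.72 (adjusted p = 0.013). The block also gave calls to Hgf (-1.07, adjusted p = 0.0228), Hbegf (1.52, 0.00434), Errfi1 (1.29, 0.0220) and Dock8 (1.42, 0.0161). It turned Furin to -0.00039 and Ptpn11 to -0.00049.

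Partner genes near 0 changed sign. With no filter Furin was -0.0014, Grb10 -0.040, Ptpn11 -0.041 and Eps15 -0.020. With no composition factors Grb10 was -0.0096 and Ptpn11 -0.014. Without both libraries numbered 2 Furin was -0.11, Socs5 -0.036, Sdc4 -0.17 and Erbb2 -0.10. At equal depth Nudt6 was -0.21. Leaving out 1 library gave Furin -0.10 to 0.28, Grb10 -0.11 to 0.20, Ptpn11 -0.11 to 0.16, Nf1 -0.30 to 0.59, Eps15 -0.11 to 0.19, Erbb2 -0.021 to 0.16, Nudt6 -0.16 to 0.34, Sdc1 -0.23 to 0.0069, Sdc4 -0.17 to 0.41 and Hivep2 -0.93 to 0.079.

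By longest annotated transcript, the wild-type ranks of Pdgfa and Met were 6 and 7, and the labelled ranks of Fgfr1, Pdgfra, Pdgfa, Fgf10 and Met were 2, 3, 5, 6 and 7. That setting and the removal of single libraries were added for the receptor shares after seeing the data, and no share changed direction. Comparisons of Pdgfb, Fgfr3 and Fgfr4 are limited by their low counts, at most 9 in a group.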

Other observations

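Among the other FGF genes, which are not all genes of secreted ligands, Fgf21 had 40 counts, all in wild-type library 2, and 0 in the other 5 libraries. Fgf12 had 1 count in the wild-type libraries and 12 in the labelled ones, a ratio of pooled CPM of 42.3 (exact 95% interval 6.26 to 1809), and Nrg2, a neuregulin gene, had 4 and 16 counts (ratio 14.1, interval 4.55 to 58.0). These genes had too few counts for the test and were picked with their values in view, and the intervals hold counting error alone.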
